A study of Micromonas commoda with 15 samples.

Results

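The comparison described here set cultures of the marine green alga Micromonas commoda exposed to ZnO nanoparticles against cultures exposed to Fe2O3 nanoparticles. It rests on 6 of the 15 RNA-seq libraries of the series, 3 with ZnO particles and 3 with Fe2O3 particles, chosen by their labels, and it covers every gene model with enough reads to be tested, 10012 of 10300. All cultures were of strain RCC299 (Noum17), grown in L1 medium at 20 °C under alternating light and dark, and the metals were added 24 h after the flasks had been prepared in early exponential phase. Cells were harvested after 48 h of exposure, and poly(A)-selected libraries were made from their RNA. ZnO particles were added at 1e-05 M, for which the labels give 0.8 mg/L of zinc. Fe2O3 particles were added at 3.0e-05 M, for which they give 2.4 mg/L of iron. Read as masses of the metal alone, the mass figures do not match the molar ones. Whether they count the whole oxide was not settled here, and both are given as stated. The Fe2O3 dose was therefore 3 times the ZnO dose on either scale, so metal and dose cannot be told apart in any difference given here. Further groups of 3 libraries each received the equivalent metal concentration as ZnSO4 or FeCl3, or were labelled as control, with no further description of their handling. The labels do not say whether the 3 libraries of a group came from separate flasks, so the p-values measure only the spread among these libraries.

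Micromonas is a picoalga, among the smallest photosynthetic eukaryotes, and a common member of coastal phytoplankton. Iron serves algae as a cofactor of photosystems, cytochromes and ferredoxin, and its oxides dissolve very little in sea water. Zinc is a cofactor of carbonic anhydrases and of many DNA-binding proteins, it becomes toxic in excess, and zinc oxide particles release zinc ions far more readily than iron oxide particles release iron. The files pair the gene models with no gene names, and 0 of the 10300 identifiers matched the RefSeq annotation at hand. The models are therefore described by their levels and not by their function, and identifiers are printed only for the leading 2 in each direction.

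The 6 libraries held 35773933 to 46840498 counted reads, with at most 1.99% of a library in a single model. On the first principal component of the 6 libraries, which held 57.6% of their variance, ZnO libraries scored -22.8, -25.5 and -19.1 for replicates 1 to 3, and Fe2O3 libraries scored 12.6, 15.7 and 39.1. The groups did not overlap, and the exact two-sided permutation test gave 0.1, the smallest p that 3 libraries against 3 allow. Fe2O3 replicate 3 stood apart from the rest of its group. The spread of log2 differences between a pair of libraries (SD over models) was 0.235 to 0.296 within the ZnO group. Within the Fe2O3 group it was 0.314 between replicates 1 and 2, and 0.531 and 0.487 for the pairs that include replicate 3. Pairs of a ZnO and an Fe2O3 library had 0.452 to 0.677, so Fe2O3 replicate 1 differed more from Fe2O3 replicate 3 than from ZnO replicates 1 and 3. The median SD of log2 CPM (reads of a model scaled to a common library size, here with TMM factors, which correct for library composition) over the 3 libraries was 0.108 in the ZnO group and 0.237 in the Fe2O3 group. Results that lean on Fe2O3 replicate 3 are given with and without it.

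**Figure D1:**
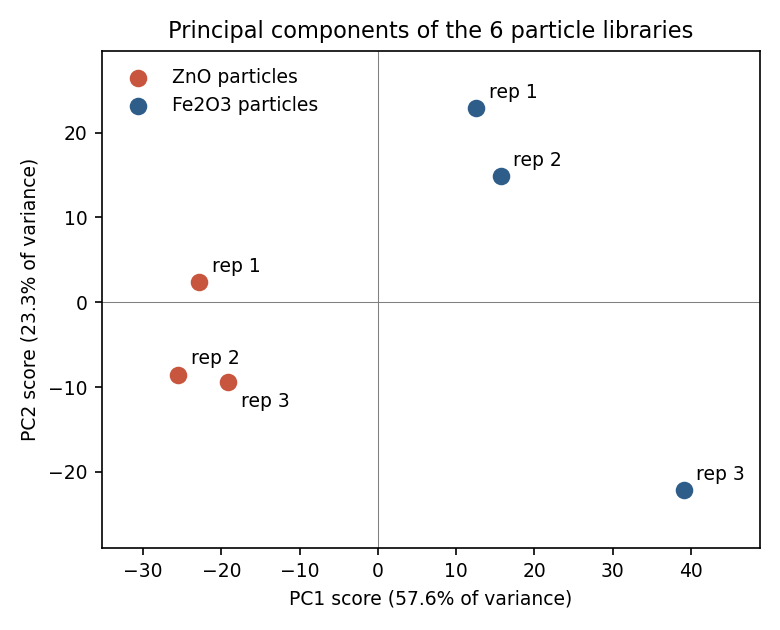
Scores of the 3 ZnO and 3 Fe2O3 particle libraries on the first (x axis) and second (y axis) principal components of log2 CPM. Each point is a library. The ZnO libraries lie together between -25.5 and -19.1 on the first component, while Fe2O3 replicate 3, at 39.1, lies away from Fe2O3 replicates 1 and 2, at 12.6 and 15.7.

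Between the particles 1922 models (19.2% of those tested) were called at a threshold of 0.05 by edgeR's quasi-likelihood test after adjustment over all models, 750 higher (7.49%) and 1172 lower (11.7%) with ZnO than with Fe2O3. Most differences were small. Among the models that were higher with ZnO the median log2 fold change was 0.64, and among those that were lower it was -0.75. The quartiles ran from 0.50 to 0.81 for the higher models and from -1.03 to -0.55 for the lower ones. A difference of at least 2-fold was reached by 98 higher models (0.979% of all tested) and 321 lower ones (3.21%), and of at least 4-fold by 2 (0.02%) and 11 (0.11%). Without adjustment 3228 models (32.2%) had a p under 0.05. Over all 10012 models the quartiles of the log2 fold change were -0.28 and 0.26. No called model was without reads in either group: the called model with the fewest had 107 reads over the 6 libraries. The 3 ZnO libraries lay wholly above or wholly below the 3 Fe2O3 libraries in 4244 models, 42.4% of those tested (21.1% higher and 21.3% lower), and in 745 of the 750 higher and 1166 of the 1172 lower models.

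The excess of lower over higher models depended on the scaling and on single libraries. TMM factors are computed against a reference library, and the library chosen automatically was Fe2O3 replicate 3. With control replicate 2 as the reference there were 1008 higher and 965 lower models, and with total counts as the only scaling there were 1795 and 593. Total counts put the median log2 fold change over all models at 0.17, against 0.013 with TMM, and between the salts at 0.17, against -0.093. The reference library also became control replicate 2 when any ZnO or ZnSO4 library, FeCl3 replicate 1 or Fe2O3 replicate 3 was left out, and lower models then made up 48% to 54.2% of the calls, against 59.7% to 65% without any of the other 7 libraries and 61% with all 15. Among differences of at least 2-fold the lower models stayed more numerous, with 123 higher and 261 lower under the other reference and 182 and 194 with total counts only. Without Fe2O3 replicate 3 the calls were 657 higher and 756 lower, of which 125 and 190 reached 2-fold. Fe2O3 replicate 3 was the highest library of its group in 719 of the 1172 lower models (61.3%) and the lowest in 390 of the 750 higher ones (52%), while among models not called it was highest in 43.9% and lowest in 43%. Same-numbered libraries of the particle groups deviated together, while those of the salts did not. The comparison was therefore also fitted with the replicate number as a block, a pairing read from these same data. Over all 5 groups the fit with the block called 1986 models. Over the 6 particle libraries alone, a fit added after seeing the data, it called 3034, 1420 higher and 1614 lower. Giving each library its own weight in limma voom, which allows for the tighter ZnO group, called 3693 models, 1729 higher and 1964 lower. Without ZnO replicates 1, 2 or 3 the lower models numbered 728, 566 and 711, and without ZnO replicate 2 the higher models numbered 478. Without FeCl3 replicate 1 there were 1180 higher models.

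Calls in the 2 directions were spread differently over abundance. The 10012 tested models were divided into quintiles by their mean level over all libraries. In the most abundant quintile, with a median of 217 CPM, 69 models were higher and 385 lower with ZnO than with Fe2O3 particles, or 3.44% and 19.2% of that quintile, although total counts only turned this to 441 higher and 268 lower. Without Fe2O3 replicate 3 it held 58 higher and 337 lower models. Without FeCl3 replicate 1 it held 132 and 372, and without ZnO replicate 2 it held 47 and 225. Leaving out any of these libraries also made control replicate 2 the TMM reference. With that reference and all libraries kept the numbers were 108 and 334, and with library weights in limma voom 181 and 639. In the middle quintile, with a median of 19.7 CPM, the numbers were 228 and 252, and in the second lowest quintile, at 8.3 CPM, 180 and 130. The called lower models together took 14.8% ± 0.569 of the reads with ZnO and 23.4% ± 2.01 with Fe2O3, and the called higher models 3.75% ± 0.0651 with ZnO and 1.95% ± 0.01 with Fe2O3 (SD, n = 3 each), values given as a description since these reads chose the models. Of the 100 most abundant models in the particle libraries, 0 were called higher with ZnO and 19 were called lower, and with total counts only 6 and 18. Over all tested models 7.49% were called higher and 11.7% lower, and in the most abundant quintile 3.44% and 19.2%. By edgeR's quasi-likelihood test 0 of the 100 were higher at an unadjusted p under 0.05, and the DESeq2 Wald test called 0 higher and 23 lower, limma voom 0 and 19, and limma voom with library weights 1 and 38. Their log2 fold changes ran from -1.49 to 0.35. Together these 100 models took 29.5% ± 0.283 of the reads with ZnO particles and 31.1% ± 0.07 with Fe2O3 particles (SD, n = 3 each), with an exact permutation p of 0.1. Scaled by TMM, their summed level was 275000 ± 4010 CPM with ZnO and 325000 ± 25700 CPM with Fe2O3, and without TMM it was 295000 ± 2860 CPM with ZnO and 311000 ± 679 CPM with Fe2O3 (SD, n = 3 each). The most abundant model of all averaged 16800 ± 400 CPM with ZnO and 20100 ± 2390 CPM with Fe2O3 (SD, n = 3 each). Its log2 fold change, -0.26, was not called by edgeR's quasi-likelihood test (adjusted p 0.358). Of the 10 most abundant models 1 was called, beside 19.2% of all tested models. This model had 5630 ± 80.9 CPM in ZnO libraries and 8520 ± 578 CPM in Fe2O3 libraries (SD, n = 3 each).

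**Figure D2:**
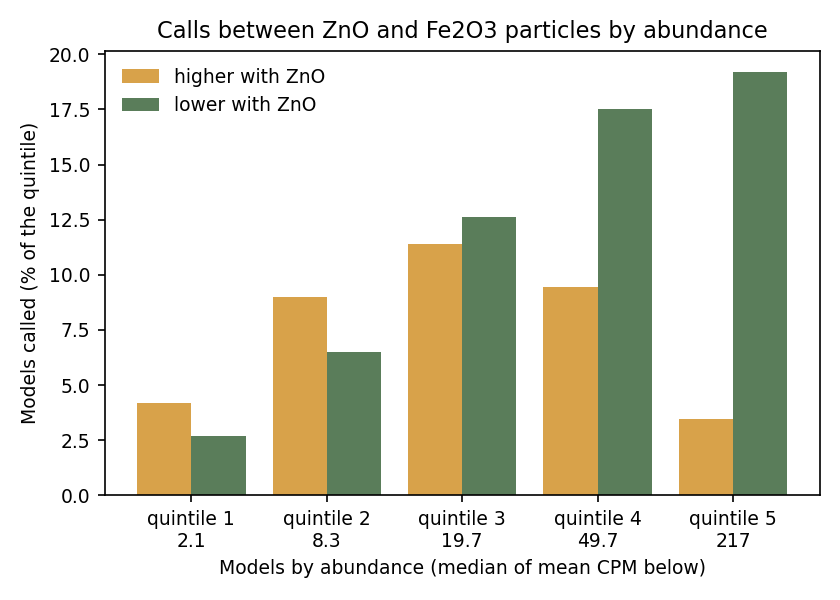
Share of gene models called higher or lower with ZnO than with Fe2O3 particles (y axis, percent of the models in each quintile), by quintile of mean abundance (x axis, rarest to most abundant, median CPM under each). Calls of lower models reach 19.2% in the most abundant quintile, where 3.44% are higher.

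The models with the largest differences were ranked among those called, with a mean of at least 5 CPM over the 6 libraries and no overlap between the groups, of which 632 were higher and 1124 lower with ZnO. The largest of these differences in favour of ZnO particles was that of wlab.243021.1 (1 called model with a mean under 5 CPM had a larger one). It had 1360, 1430 and 1550 CPM in the ZnO libraries and 411, 388 and 264 CPM in the Fe2O3 libraries. The lowest ZnO library thus lay more than 3 times above the highest Fe2O3 library. Its log2 fold change was 2.03 (SE 0.306), a 4.08-fold difference called by edgeR's quasi-likelihood test (adjusted p 0.000337), or 1.91 without Fe2O3 replicate 3. The model was most abundant in control cultures, at 11700 ± 5030 CPM (SD, n = 3), so that it stood below the control level with either particle: the log2 fold change was -3.01 (SE 0.318) for ZnO and -5.04 (SE 0.35) for Fe2O3 particles.

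The second model, wlab.2158.1, ran parallel to the first. It had 1510, 1560 and 1690 CPM in the ZnO libraries and 485, 430 and 288 CPM in the Fe2O3 libraries, again with no overlap and with Fe2O3 replicate 3 the lowest. The particles differed by 1.99 on the log2 scale (SE 0.31; edgeR's quasi-likelihood test, adjusted p 0.000419), or by 1.85 without Fe2O3 replicate 3. Against control cultures, at 12800 ± 5460 CPM (SD, n = 3), it differed on the log2 scale by -3.01 with ZnO and -5.00 with Fe2O3. The third and the fifth model were of the same kind, at 1.98 (SE 0.345) and 1.96 (SE 0.345). Over all 15 libraries the first model stayed between 0.847 and 0.92 of the level of wlab.2158.1, the third between 0.475 and 0.658, and the fifth between 0.551 and 0.852. Whether these 4 models are similar enough in sequence for reads to be divided among them is not given by the files, so they may not be 4 separate observations. Grouped after their values were seen, the 4 together took 0.516%, 0.540% and 0.572% of the counted reads in the ZnO libraries and 0.145%, 0.124% and 0.0944% in the Fe2O3 libraries. In control libraries they took 2.44% to 4.29%, and control replicate 1 was the highest.

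The other 6 of the 10 leading higher models were of low to moderate abundance. The fourth had 9.28, 8.29 and 9.08 CPM in the ZnO libraries and 1.24, 2.69 and 2.83 CPM in the Fe2O3 libraries, a log2 fold change of 1.96 (SE 0.26). Control cultures had 2.67 ± 0.514 CPM (SD, n = 3), so this model was higher than control with ZnO particles (log2 fold change 1.74) and was not called with Fe2O3 particles (-0.23; edgeR's quasi-likelihood test, adjusted p 0.451). The seventh model was above control cultures with either particle. It averaged 20.5 ± 2.25 CPM with ZnO, 6.35 ± 1.25 CPM with Fe2O3 and 1.95 ± 0.17 CPM in controls (SD, n = 3 each). The tenth was not called against control with ZnO particles and was lower than control with Fe2O3 particles, with 126 ± 2.79 CPM with ZnO, 40.3 ± 7.79 CPM with Fe2O3 and 132 ± 24.2 CPM in controls (SD, n = 3 each). The eighth varied widely among libraries. It had 128, 76.8 and 72.2 CPM in the ZnO libraries and 43.4, 25 and 19.1 CPM in the Fe2O3 libraries. Its log2 fold change of 1.67 (SE 0.447) passed edgeR's quasi-likelihood test (adjusted p 0.0166), and the call was lost without ZnO replicate 1, Fe2O3 replicate 2 or Fe2O3 replicate 3, at 1.41, 1.57 and 1.48. The sixth and the ninth were below control cultures with either particle. The sixth averaged 45.9 ± 3.74 CPM with ZnO, 13.1 ± 2.84 CPM with Fe2O3 and 192 ± 68.9 CPM in controls, and the ninth 66.3 ± 3.15 CPM with ZnO, 21.0 ± 0.547 CPM with Fe2O3 and 233 ± 60.8 CPM in controls (SD, n = 3 each). In all, 8 of the 10 were called lower than control with Fe2O3 particles, beside 35.7% of all tested models. With ZnO particles 6 of the 10 were, beside 33.7%. The 10 were picked for a low level with Fe2O3 relative to ZnO, so these calls are a description.

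In the other direction the largest difference was that of wlab.231664.1. It had 39.0, 46.3 and 54.4 CPM in the ZnO libraries and 246, 258 and 437 CPM in the Fe2O3 libraries. Every Fe2O3 library lay above every ZnO library, and Fe2O3 replicate 3 was the highest. The log2 fold change was -2.75 (SE 0.345), so that the level was 6.73-fold higher with Fe2O3 (edgeR's quasi-likelihood test, adjusted p 8.62e-05), and it was -2.38 without Fe2O3 replicate 3. Control cultures, at 103 ± 38.7 CPM (SD, n = 3), lay between the groups: the model was below control with ZnO particles (log2 fold change -1.14, SE 0.329) and above control with Fe2O3 particles (1.61, SE 0.331).

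The next, wlab.2958.1, was rare in control cultures, at 0.402, 0.793 and 0.540 CPM. It had 1.41, 1.32 and 1.70 CPM in the ZnO libraries and 6.96, 6.50 and 13.7 CPM in the Fe2O3 libraries, with Fe2O3 replicate 3 far above replicates 1 and 2. The log2 fold change between the particles was -2.61 (SE 0.34; edgeR's quasi-likelihood test, adjusted p 0.000108) and -2.13 without Fe2O3 replicate 3. It was above control with either particle, by 1.34 (SE 0.391) on the log2 scale with ZnO and by 3.95 (SE 0.383) with Fe2O3.

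**Figure D3:**
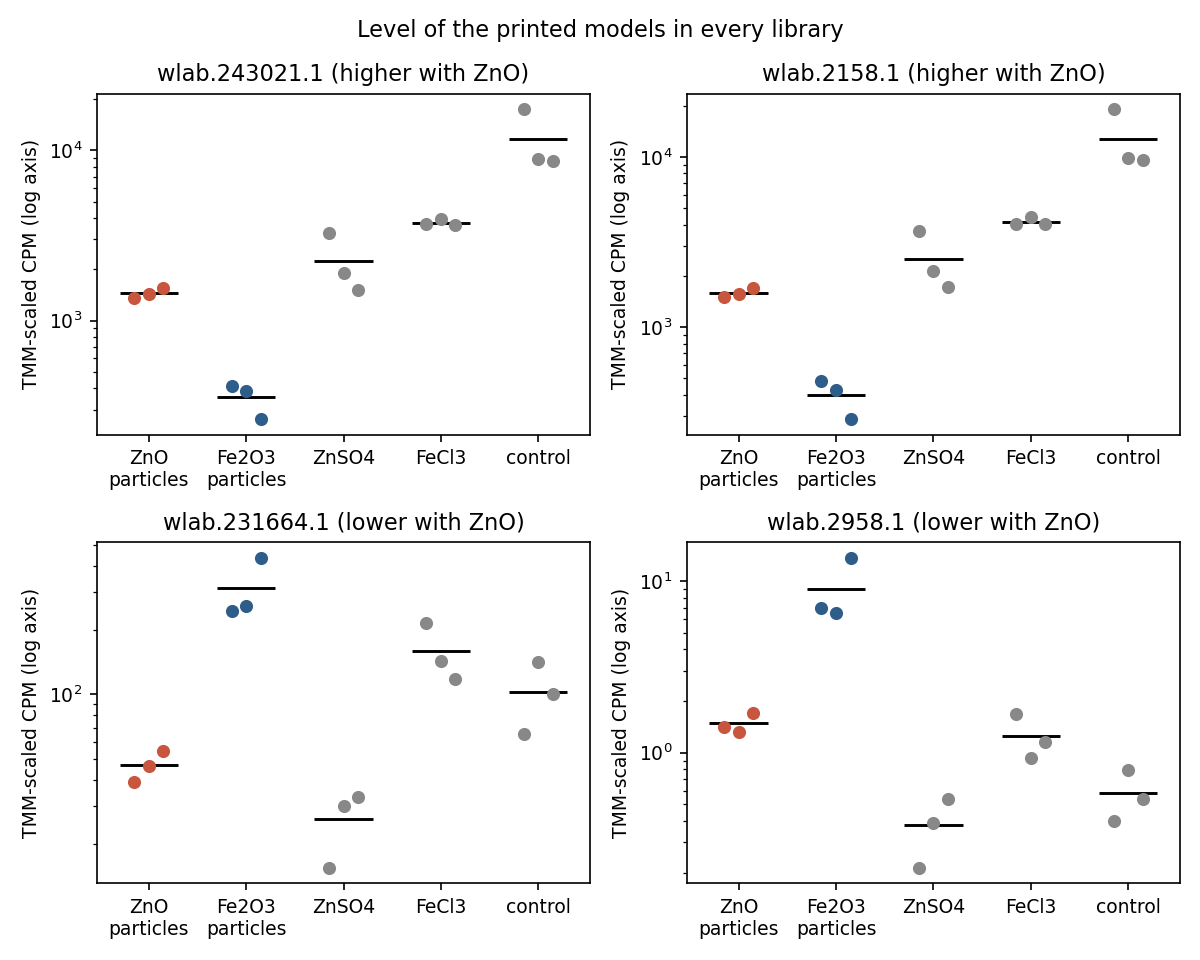
TMM-scaled CPM (y axis, log scale) of the leading 2 models in each direction in every library, by group (x axis). Points are libraries and bars are means of 3. The models in the top row are lowest in the Fe2O3 particle libraries, at means of 354 and 401 CPM, and those in the bottom row are highest there, at 314 and 9.04 CPM.

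All 10 leading lower models were called above control cultures with Fe2O3 particles, beside 35.6% of all tested models. With ZnO particles 5 were called below control, 2 above, and 3 were not called, beside 33.7% below and 30.1% above over all models. The 10 were picked for a high level with Fe2O3 relative to ZnO, so these calls are a description. The third averaged 13.5 ± 3.48 CPM with ZnO, 71.1 ± 24.7 CPM with Fe2O3 and 29.2 ± 4.52 CPM in controls (SD, n = 3 each). The fourth averaged 10.7 ± 1.34 CPM with ZnO, 50 ± 13.6 CPM with Fe2O3 and 5.36 ± 1.55 CPM in controls. The fifth lay below control with ZnO and above it with Fe2O3: 19.4 ± 2.43 CPM with ZnO, 84.5 ± 19.2 CPM with Fe2O3 and 60.5 ± 10.6 CPM in controls, with log2 fold changes against control of -1.64 (SE 0.213) for ZnO and 0.48 (SE 0.206; edgeR's quasi-likelihood test, adjusted p 0.0468) for Fe2O3. The sixth to the tenth model averaged between 7.95 and 30.3 CPM with ZnO and between 31.7 and 126 CPM with Fe2O3, with 6.69 to 54.8 CPM in controls. The ratio of Fe2O3 over ZnO ran from 3.99 to 6.73 over the 10. Fe2O3 replicate 3 was the highest of its group in 10 of the 10, and all 10 calls held without it, with log2 fold changes from -2.38 to -1.39.

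The position of the control cultures was examined for all called models by giving each particle's change against control side by side. These changes share the 3 control libraries and contain the same particle libraries as the calls, so they describe the calls and do not test them. The 750 models higher with ZnO had a median log2 fold change against control of -0.18 with ZnO particles and -0.83 with Fe2O3 particles. Among them 324 were called below and 232 above control with ZnO, and 496 below and 123 above control with Fe2O3. Over all tested models 63.8% were called against control with ZnO (33.7% below and 30.1% above), and 71.2% with Fe2O3 (35.7% and 35.6%). The 1172 models lower with ZnO had a median of 0.08 with ZnO particles and 0.89 with Fe2O3 particles. Among them 299 were below and 392 above control with ZnO, and 90 below and 872 above control with Fe2O3. The size of the change against control was the smaller one with ZnO in 1378 of the 1922 called models (71.7%), beside 62.1% of all tested models. It was the smaller one in 70% of the calls made without Fe2O3 replicate 3 and in 67.4% with total counts only. The alternatives ran from 65.6%, with library weights in limma voom, to 75.3%, with a mean of at least 5 CPM required. The share over all models was not computed for the alternatives.

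**Figure D4:**
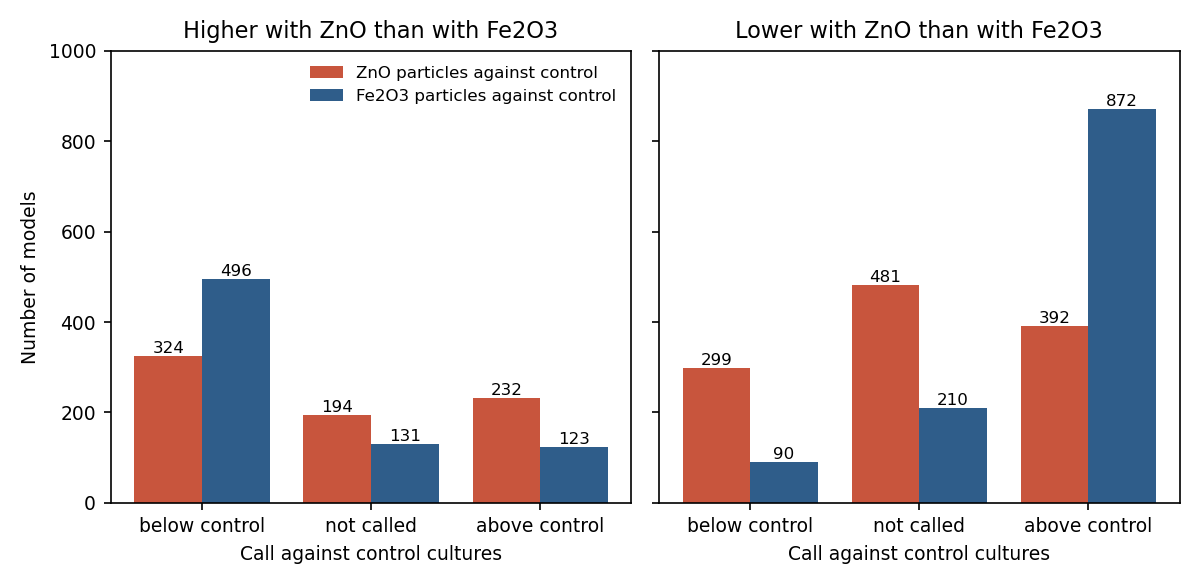
Number of models (y axis) called below, not called, or above control cultures (x axis) with ZnO particles and with Fe2O3 particles, for the 750 models higher with ZnO than with Fe2O3 (left) and the 1172 lower (right). The lower models lie mostly above control with Fe2O3 particles, 872 of them, against 392 with ZnO particles.

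The same metals added as salts provided a comparison of other libraries. It is not independent of the particle comparison, since both came from a single fit that shares each model's estimate of spread. The TMM reference, Fe2O3 replicate 3, is itself a particle library. Between ZnSO4 and FeCl3, 5314 models (53.1%) were called, 2268 higher with ZnSO4 (22.7%) and 3046 lower (30.4%), a split that turned to 3105 and 2054 with the other reference library for TMM and to 3436 and 1434 with total counts only. Of the 1172 models lower with ZnO than with Fe2O3 particles, 847 (72.3%) were also called lower with ZnSO4 than with FeCl3, which is 27.8% of the salt list in that direction, and 75 were called higher. Of the 750 models higher with ZnO particles, 271 (36.1%) were also higher with ZnSO4, which is 11.9% of that salt list, and 122 were lower. The median log2 fold change between the salts was -0.76 for the lower and 0.19 for the higher models, beside -0.093 over all models. Across the 10012 models the particle and salt differences had r = 0.341 and Spearman's rho = 0.418, given as a description since models are not independent replicates and the libraries share a scaling. The SD over models was 0.469 for the particle and 0.947 for the salt differences. Where a model was called the same way in particles and salts, the difference between the salts was the larger in 743 of 1118 (66.5%). The matching share over all tested models was not computed. The salt differences spread more widely over all models, and whether this share is particular to the shared ones was not tested.

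These shares moved with the scaling. With control replicate 2 as the reference for TMM, 63.4% of the lower and 47% of the higher models were called the same way between the salts, beside 20.5% and 31% of all models for lower and higher calls between the salts. Total counts only gave 59% and 56%, beside 14.3% and 34.3%. Without Fe2O3 replicate 3, which also made control replicate 2 the reference, they were 64.6% and 42.2%, beside 22% and 33%. The number of shared lower models was 847 with all libraries. It was 473, 376 and 473 without ZnO replicates 1, 2 or 3. Without Fe2O3 replicate 3 it was 488, and without ZnSO4 replicates 1 or 2 it was 527 and 520. Every fit without a library named here used control replicate 2 as the reference, which gave 612 with all libraries kept. The number of shared higher models, 271 with all libraries, was 176 without Fe2O3 replicate 2, 483 without FeCl3 replicate 1 and 407 without ZnSO4 replicate 1. The fits without FeCl3 replicate 1 or ZnSO4 replicate 1 also used control replicate 2 as the reference, which gave 474 with all libraries kept.

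**Figure D5:**
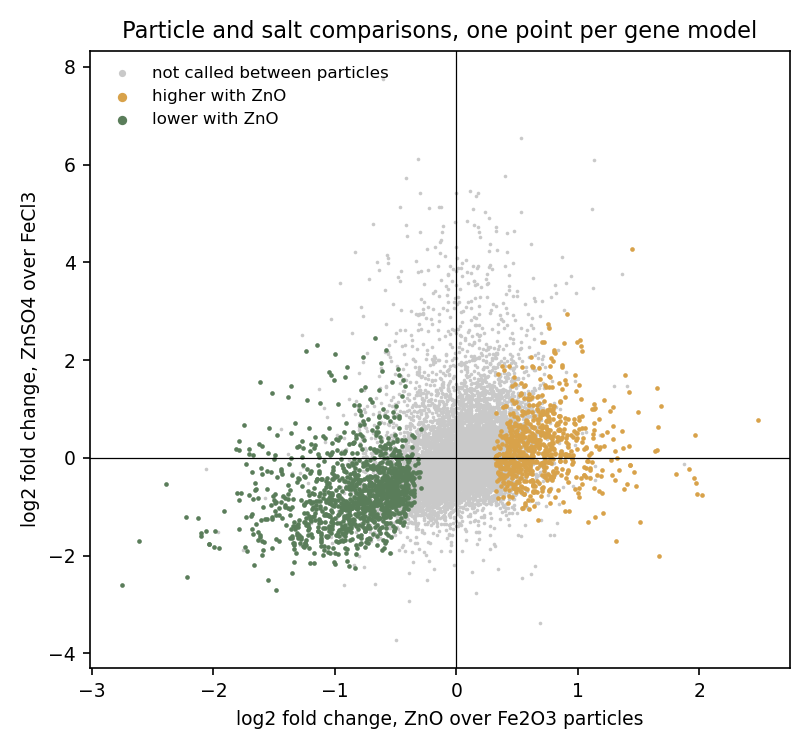
Log2 fold change of ZnO over Fe2O3 particles (x axis) and of ZnSO4 over FeCl3 (y axis), with 1 point per gene model tested. Models called lower with ZnO particles lie mostly below 0 between the salts, with a median of -0.76, and those called higher scatter on either side, with a median of 0.19.

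Whether the zinc-iron difference itself depended on the form was tested as an interaction. It was called in 2829 models over the whole table (28.3%; 14.4% positive and 13.9% negative), and in 684 of the 1922 called between the particles (35.6%), a share in which the same particle libraries enter both calls. Of the 607 models called between the particles but not between the salts, 181 of 357 higher and 124 of 250 lower ones had an interaction in the same direction, so for the others a difference between particles and salts was not shown. The leading models were picked by the particle difference, which enters the interaction, so counts of interactions among them are a description. Among the 10 leading higher models 9 had an interaction. Between the salts 1 of the 10 was also higher with ZnSO4 than with FeCl3, 2 were lower and 7 were not called. Over all tested models 22.7% were called higher and 30.4% lower between the salts. The model wlab.243021.1 had 2240 ± 931 CPM with ZnSO4 and 3760 ± 153 CPM with FeCl3 (SD, n = 3 each), a log2 fold change of -0.75 (SE 0.296; edgeR's quasi-likelihood test, adjusted p 0.0438) that runs opposite to that of the particles. The model wlab.2158.1 was at -0.73 between the salts and was not called (SE 0.3; edgeR's quasi-likelihood test, adjusted p 0.0511). Among the 10 leading lower models 9 were also lower with ZnSO4 than with FeCl3, beside 30.4% of all tested models. An interaction was called in 2 of the 10, beside 28.3% of all tested models. The model wlab.231664.1 had 26.2 ± 9.4 CPM with ZnSO4 and 159 ± 51.7 CPM with FeCl3 (SD, n = 3 each), a log2 fold change of -2.61 (SE 0.344). For wlab.2958.1 the levels were 0.380 ± 0.162 CPM with ZnSO4 and 1.25 ± 0.377 CPM with FeCl3, and the log2 fold change was -1.70 (SE 0.387).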

How the data were processed

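The authors deposited 1 table of whole-number counts per gene model for 15 libraries, used here as it stands. The submitters' processing notes name RSEM 1.3.0 and STAR, besides Trim Galore 0.4.0 and CASAVA 2.17, and the deposited table's own name speaks of HTSeq counts. Build and annotation: not given in the sources used here.

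Analysis used edgeR 4.0.16 under R 4.3.3. Models passing filterByExpr with a minimum count of 10 were tested, 10012 in all. A single quasi-likelihood fit over the 5 groups, with TMM factors and no term other than group, gave every contrast, with F tests and Benjamini-Hochberg adjustment over all tested models (threshold 0.05). Each SE was obtained as the absolute log2 value over the root of F. The fit was also run on simulated counts with the same spread in every group and few changed models. That setting does not cover the unequal spread of the particle groups. The described models are the 10 highest and 10 lowest log2 fold changes among called models with no overlap and a mean of at least 5 CPM. Members and lists were chosen with earlier results of these data known. The replicate numbers, which the labels give, entered as a block in alternative fits only. Deviations of same-numbered particle libraries correlated at 0.428, 0.226 and 0.278 over models. Between the salts they did not (-0.216, 0.0916 and -0.332). The pairing was thus read from these same data. Alternatives used other scalings, filters and thresholds, DESeq2 1.42.0, limma 3.58.1 (voom), a replicate block, and single libraries left out. Replicate libraries differed by more than sampling noise. A repeated identifier occurs on 6 rows and a duplicate mark on 29 models, and none of the 20 described models is among them.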

Additional observations from a re-analysis of the deposited data

Results flagged for a closer look

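The difference between zinc and iron was not the same for particles and for salts in 2829 of 10012 models by the interaction term of edgeR's quasi-likelihood test. Among the 20 described models this held for 11. They were picked by the particle difference, which enters the interaction, so this count is a description. The interaction is given for each as the particle difference minus the salt difference on the log2 scale. For the higher models it was 2.78 for wlab.243021.1, 2.72 for wlab.2158.1, 2.48 for the third, 1.5 for the fourth, 2.36 for the fifth and 2.14 for the sixth. It was 3.68 for the eighth, where ZnO stood above Fe2O3 particles by 1.67 and ZnSO4 below FeCl3 by -2.01, and 1.5 for the ninth and the tenth. For the lower models it was -1.87 for the third and -0.89 for the fifth. In the fifth the call was lost while the value stayed of similar size: it was -1.01 with total counts only, -0.96 without ZnO replicate 2, -0.78 and -0.75 without FeCl3 replicates 2 or 3, and -0.94 without ZnSO4 replicate 3. Its adjusted p of 0.0323 by edgeR also missed a threshold of 0.01.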

How the results depend on the processing

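All 20 described models kept their direction under every alternative that could be fitted, and 19 kept their call. The eighth higher model lost its call without any of the 3 libraries named above and at an adjusted p under 0.01. The 20 were picked for large differences without overlap in these same data, so this is a description and not an independent check. Total counts only gave 1795 higher and 593 lower models between the particles, 182 and 194 of them at least 2-fold, 3436 and 1434 between the salts, 1006 and 350 shared, and 125 called in opposite directions. Requiring a mean of 5 CPM left 59 higher models at least 2-fold, and removed 2 of the described models. The DESeq2 Wald test shared 421 higher models with the salts, and another TMM reference, chosen after seeing the data, 474. An adjusted p under 0.01 left 963 models, 281 higher and 682 lower, 536 shared with the salts (59 and 477), 69 opposite, 1573 interactions and 717 nearer the control level with ZnO. Library weights in limma voom, added after seeing the data, gave 3693 models, 1729 higher and 1964 lower, 2149 shared (770 and 1379), 772 opposite, 5356 interactions and 2422 nearer control. With the replicate block over all 5 groups 1986 models were called, and with the block over the 6 particle libraries alone, added after seeing the data, 3034, of which 1420 higher. The summed level of the 100 most abundant models differed by -49900 CPM between ZnO and Fe2O3 with TMM and by -16800 CPM without it. Leaving out each of the 15 libraries in turn (the 9 outside the particle groups were added after seeing the data) gave 1044 to 2270 called, 478 to 1180 higher, 566 to 1276 lower, 96 to 125 higher and 190 to 391 lower at least 2-fold, 307 to 497 at least 2-fold in all, 4199 to 5538 between the salts (2017 to 3306 higher, 1603 to 3181 lower), 589 to 1240 shared (176 to 483 higher, 376 to 918 lower), 83 to 249 opposite, 2038 to 3059 interactions and 777 to 1632 nearer control. Each of these fits has fewer libraries, and some also changed the TMM reference to control replicate 2. That reference with all 15 libraries gave 1008 higher and 965 lower models. The cause of these changes was not tested. With 3 libraries a group, no single value can reach a permutation p under 0.1.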
